A study of Mus musculus with 6 samples.

Results

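The RNAs described here are the microRNA (miRNA) precursor transcripts in the small RNA profile of the mouse duodenum. They were chosen by annotation alone, as every transcript of the deposited table whose Ensembl identifier has the type miRNA in the GENCODE M21 mouse annotation, and 151 of the 1630 transcripts in the table met that rule. GENCODE M21 lists 2202 miRNA transcripts, and the table holds only transcripts with at least 1 count. A further 312 Ensembl transcripts of the table were not found in GENCODE M21 and could hold more of them.

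Short RNA was sequenced from the superior duodenum of 3 heterozygous Polr3B-/+ males and 3 wild-type males, all on the C57BL/6N background, after an overnight fast. Polr3B encodes the second-largest subunit of RNA polymerase III (Pol III), and the heterozygotes carry the allele Polr3b em7(IMPC)Tcp, a short insertion predicted to shift the reading frame, on 1 of their 2 chromosomes in every cell. RNA of less than 200 nucleotides was selected and demethylated before sequencing, and the ages of the mice are not given in the sources used here. The counts compare the genotypes in whole tissue, so fewer cells of a type and less of an RNA per cell cannot be told apart.

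A miRNA gene is usually transcribed by RNA polymerase II into a long primary transcript, from which Drosha and DGCR8 cut a hairpin. Dicer then trims the hairpin to a short duplex, and the mature strand, loaded into an Argonaute protein, pairs with messenger RNAs mainly through its seed. A few miRNAs come by other routes, from introns, from small nucleolar RNAs (snoRNAs), from small Cajal body RNAs (scaRNAs) or from tRNAs, and the last of these are Pol III products. In the gut, miR-192, miR-194 and miR-215 are known as miRNAs of the epithelium, miR-143 and miR-145 as miRNAs of smooth muscle and other mesenchyme, and the let-7 family is expressed in most adult tissues. A count in this table belongs to an annotated hairpin, and it does not say whether the read was a mature strand, a precursor or a piece of another RNA with the same sequence. For these libraries the study names no mapping setting for reads as short as a mature strand. Whether such reads were counted at all was not checked.

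The 13 transcripts with enough counts to be compared between genotypes carry most of what follows, and their sequences show how unlike each other they are. RefSeq holds 22 mature strands for 12 of the 13, with 20 different seeds. The only seeds held by more than 1 strand are those of the let-7 pair, GAGGUAG on the 5p side and UAUACAA on the 3p side. The mature strands of the transcripts discussed most are given here 5′ to 3′ with the seed, bases 2 to 8, in capitals.
mmu-miR-677-5p: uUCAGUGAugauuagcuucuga
mmu-miR-3084-3p: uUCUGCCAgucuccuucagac
mmu-miR-1983: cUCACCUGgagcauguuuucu
mmu-miR-192-5p: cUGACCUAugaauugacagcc
mmu-let-7c-5p: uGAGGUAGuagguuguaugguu
mmu-let-7f-5p: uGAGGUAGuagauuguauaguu
mmu-miR-3069-3p: uUGGACACuaaguacugccaca

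The transcripts with the most counts after Mir6236 are not alike in kind, which the full sequences of the next 4 make visible. Snord43, at chr15:80082847-80082954 on the reverse strand of GRCm38, lies in an intron of Rpl3, has the type miRNA in the annotation and the name of a box C/D snoRNA, and is shown with its C box TGATGA and D box CTGA in capitals. Mir677, at chr10:128085286-128085363 on the forward strand in an intron of Atp5b, and mmu-mir-3084-1, at chr19:60774329-60774397 on the reverse strand in an intron of Eif3a, are shown with the bases that they share with an annotated snoRNA in capitals. Mir1983, at chr13:21896918-21897049 on the reverse strand, is known as a miRNA cut from an isoleucine tRNA, and the motif GTTCGANNC, the B box through which Pol III genes of the tRNA type are recognized, is in capitals.
Snord43: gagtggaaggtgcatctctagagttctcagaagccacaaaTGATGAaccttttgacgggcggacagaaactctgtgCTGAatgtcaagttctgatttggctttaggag
Mir677: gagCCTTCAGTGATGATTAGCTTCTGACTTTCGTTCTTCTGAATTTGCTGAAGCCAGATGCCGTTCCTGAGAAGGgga
mmu-mir-3084-1: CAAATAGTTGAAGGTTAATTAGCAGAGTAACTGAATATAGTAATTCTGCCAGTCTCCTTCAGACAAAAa
Mir1983: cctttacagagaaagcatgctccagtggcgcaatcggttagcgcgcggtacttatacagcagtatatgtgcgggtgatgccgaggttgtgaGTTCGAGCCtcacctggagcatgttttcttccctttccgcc

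A pair of hairpins of the usual kind is set beside them, with the annotated mature strands in capitals. Mir192 lies at chr19:6264844-6264932 on the forward strand, and Mirlet7f-1 at chr13:48537829-48537917 on the reverse strand, in an exon of the long non-coding RNA 6720427I07Rik.
Mir192: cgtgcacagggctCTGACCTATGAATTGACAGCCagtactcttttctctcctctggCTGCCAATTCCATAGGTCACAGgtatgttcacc
Mirlet7f-1: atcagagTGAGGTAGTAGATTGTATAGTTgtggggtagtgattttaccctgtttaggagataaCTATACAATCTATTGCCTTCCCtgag

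The 6 libraries held from 2114055 to 6037849 counts on short RNAs. The mice are numbered as the columns of the table number them, since the labels do not say which column belongs to which heterozygous animal. The table holds short transcripts, not the mRNA of Polr3B, and the genotypes were therefore not checked from the counts.

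miRNA transcripts took a small share of the counts. The share was 0.207%, 0.535% and 0.476% in heterozygous mice 1, 2 and 3, and 0.724%, 0.189% and 0.158% in wild-type mice 1, 2 and 3. The 95% Wilson intervals were narrow, from 0.712% to 0.735% in wild-type mouse 1 and from 0.155% to 0.161% in wild-type mouse 3, and they cover counting error only. The group means were 0.406 ± 0.175% in Polr3B-/+ and 0.357 ± 0.318% in wild type (SD, n = 3 each), a difference of 0.0494 percentage points that is smaller than either SD. The highest and the lowest share both belonged to wild-type mice.

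Mir6236 alone set most of that spread. It held 62.8% of the 68543 counts on miRNA transcripts, Snord43 held 22.5% and Mir677 held 10.1%, so that 3 of 151 transcripts held 95.3%. Without Mir6236, the share of all counts ran only from 0.0737% to 0.135% over the 6 mice, with means of 0.107 ± 0.0291% in Polr3B-/+ and 0.109 ± 0.03% in wild type (SD, n = 3 each). The 137 transcripts that neither overlap another annotated short RNA nor are Mir6236, Snord43 or Mir1983, called stand-alone from here on, summed to 1222 counts over all mice, which is 1.78% of the total. Their sum was 228, 82 and 102 counts in the heterozygous and 67, 360 and 383 counts in the wild-type mice, or 43.9, 41.6 and 33.7 CPM, which are counts scaled by TMM to libraries of equal size, against 37.3, 89.6 and 56.7 CPM, with the lowest wild-type mouse among the heterozygotes.

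**Figure D1:**
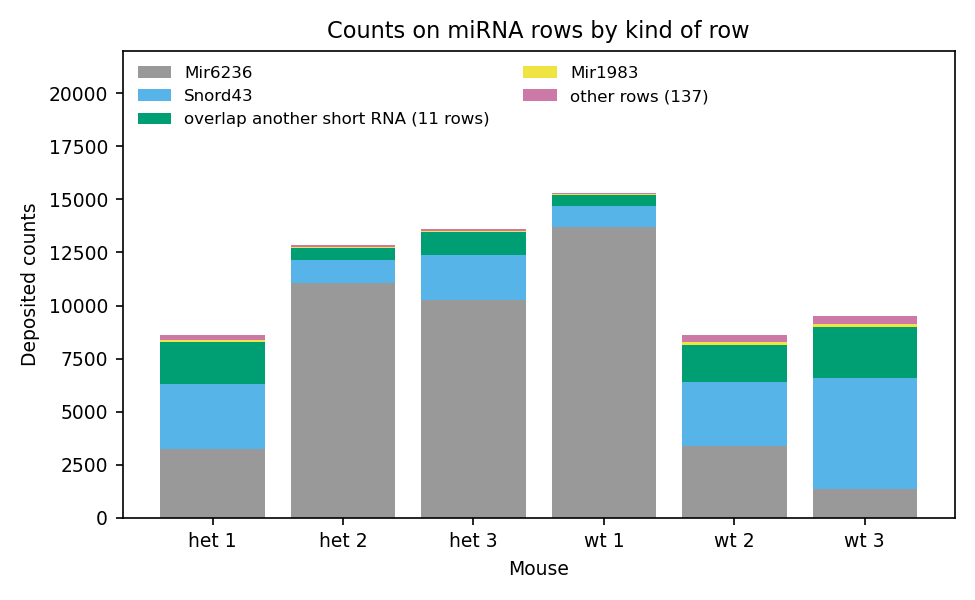
Deposited counts on the 151 miRNA transcripts in each mouse (het, Polr3B-/+; wt, wild type), stacked by kind of transcript. Mir6236 makes up the largest block in het 2, het 3 and wt 1 and the 137 stand-alone transcripts a thin band in each mouse.

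Most miRNA transcripts were barely sampled. Of the 151, 58 had a single count over all 6 mice and 111 had fewer than 10. A count in every mouse was found for 17, and at least 10 counts in every mouse for 5. The number detected was 71, 46 and 45 in the heterozygous mice and 47, 78 and 99 in the wild-type mice, and the 3 mice with the largest totals, heterozygous mouse 1 and wild-type mice 2 and 3, were the 3 with the most. Among the 3 smaller libraries the number did not rise with the total, and the part of depth in detection was not tested. With 3 counts as the limit that a count of 0 allows, that limit lay between 0.444 and 1.67 CPM.

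By edgeR's filter on low counts, 13 of the 151 miRNA transcripts (8.61%) could be tested, against 240 of 310 snoRNAs (77.4%), 13 of 14 scaRNAs (92.9%) and 24 of 150 spliceosomal and other small nuclear RNAs (16.0%). The miRNAs themselves were split by overlap, with Mir6236, Snord43 and Mir1983, all of them tested, left out of the stand-alone set by name. The low share and median of the stand-alone set follow in part from that choice. Of the 11 that overlap an annotated snoRNA or scaRNA on the same strand, 7 were tested (63.6%, median 82 counts per transcript), and of the 137 stand-alone ones 3 were tested (2.19%, median 2 counts). The other 3 tested were Mir6236, Snord43 and Mir1983, and the 3 stand-alone ones were Mir192, Mirlet7c-2 and Mirlet7f-1. The 13 passed because they had more counts than the rest, and they are not a sample of the 151.

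Between Polr3B-/+ and wild-type males, 0 of the 13 miRNA transcripts passed 10% FDR (edgeR quasi-likelihood test), as did 0 of all 560 short RNAs tested (0%). DESeq2 called 3 of 1614 short RNAs on all rows and 3 of 557 on those past the filter, and 0 of them were miRNA transcripts. An unadjusted p under 0.05 was found for 0 of the 13, beside 3.57% of the 560 (0.536% with a higher and 3.04% with a lower level in the heterozygotes). The CPM of the genotypes overlapped for each of the 13, while over all 560 the genotypes were fully apart for 2.14% on the higher side and 4.11% on the lower. The log2 fold change was below 0 for 9 of the 13 and above 0 for 4, with a median of -0.22, and 55.4% of the 560 were below 0, with a median of -0.05. The smallest unadjusted p among the 13 was 0.149 and every adjusted p was 0.999 (edgeR). The standard errors ran from 0.30 to 1.70 on the log2 scale with a median of 0.55, so differences of moderate size were not detectable for most of them.

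**Figure D2:**
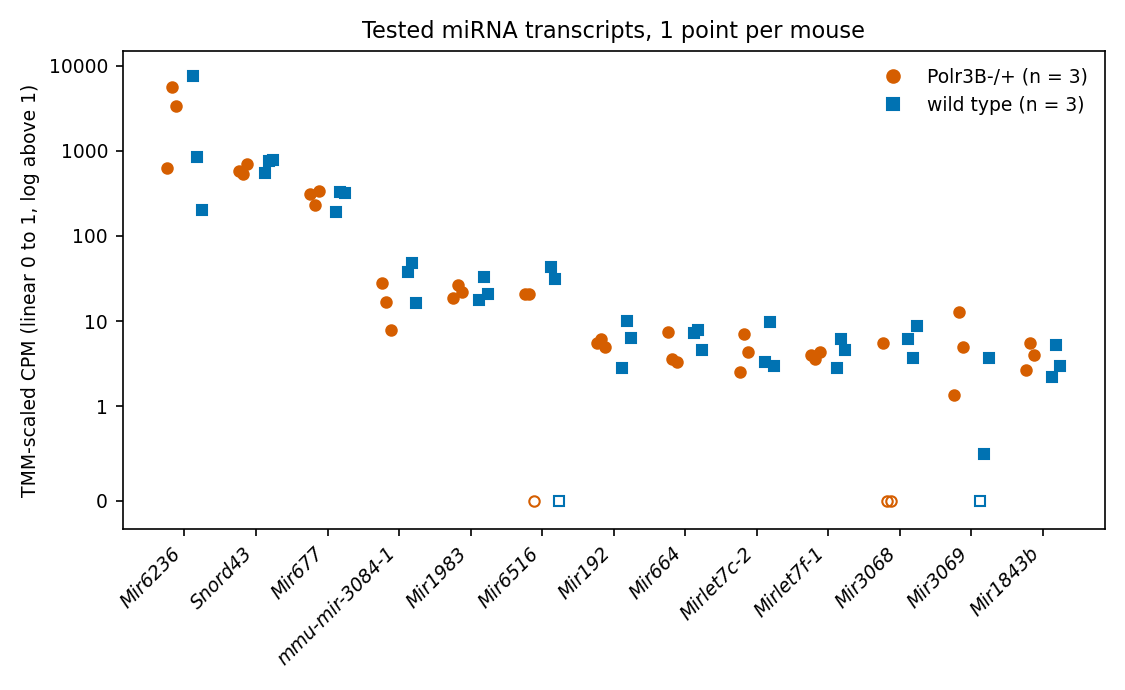
TMM-scaled CPM of the 13 tested miRNA transcripts in each of 3 Polr3B-/+ (circles) and 3 wild-type mice (squares), on an axis that is linear below 1 and logarithmic above; open symbols stand for 0 counts. The symbols of the genotypes overlap for each transcript, and Mir6236 spreads over the widest range of those with counts in every mouse, from 201 to 7612 CPM.

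**Figure D3:**
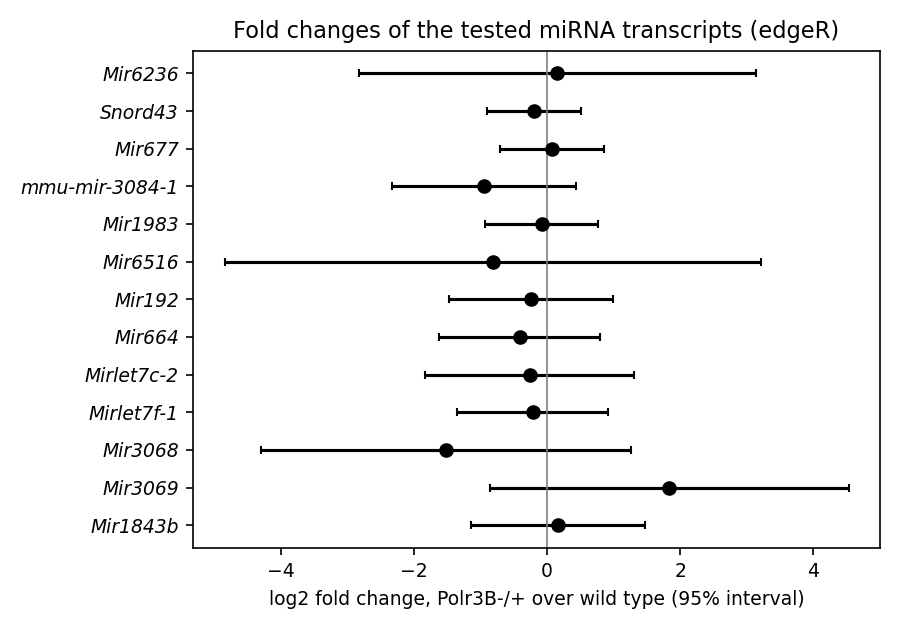
Log2 fold change of each tested miRNA transcript, Polr3B-/+ over wild type, with its 95% interval from edgeR. Every interval crosses 0, and those of Mir6516, Mir6236 and Mir3068 are the widest.

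Mir6236 was the highest of the 13 per length, with a mean of 2479 CPM per 100 bases over the 6 mice, ahead of Snord43 with 600.2, Mir677 with 367 and mmu-mir-3084-1 with 37.6. In each of the 3 larger libraries, however, Snord43 had the higher CPM per length. Mir6236 had 3264, 11082 and 10257 counts in heterozygous mice 1, 2 and 3, and 13685, 3364 and 1361 in wild-type mice 1, 2 and 3. After scaling, it had 628, 5626 and 3392 CPM in the heterozygous and 7612, 838 and 201 CPM in the wild-type mice, a 37.8-fold range. The high mice were heterozygous mice 2 and 3 and wild-type mouse 1, and the low mice were 1 heterozygous and 2 wild-type mice, so that each genotype held both. The log2 fold change of 0.16 (standard error 1.26, 95% interval from -2.83 to 3.14) spanned large differences in both directions.

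The levels of Mir6236 moved with the size of the library. Its share of all counts was 0.647% in wild-type mouse 1, whose total was the smallest, and fell in the exact order of the totals through 0.462%, 0.359%, 0.0784% and 0.0738% to 0.0225% in wild-type mouse 3, whose total was the largest. The 3 smaller libraries held more Mir6236 counts outright than the 3 larger ones. Snord43 and Mir677 had more counts in the larger libraries, and the part of library size in the level of Mir6236 was not tested. Mir6236 matched no other GENCODE M21 transcript over 31 bases or more at 95% identity, and ribosomal RNA precursors, which are not among the transcripts compared, were not searched.

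**Figure D4:**
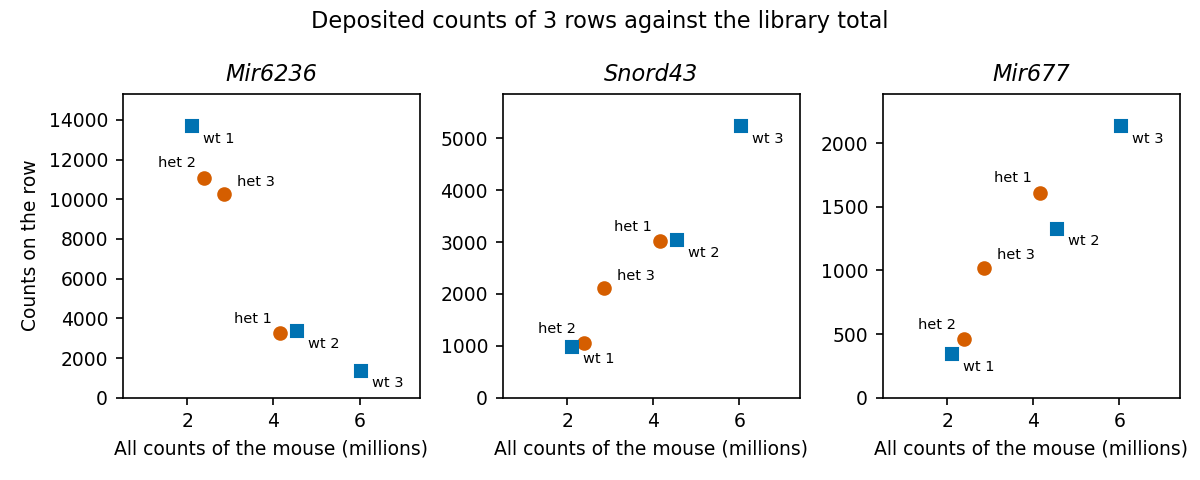
Deposited counts of Mir6236, Snord43 and Mir677 (vertical axes) against the sum of all counts of the mouse (horizontal axes), with 1 symbol for each of 3 Polr3B-/+ (het, circles) and 3 wild-type mice (wt, squares). Mir6236 is at 10257 to 13685 counts in the 3 smaller libraries and at 1361 to 3364 in the 3 larger, and the other transcripts rise with the total.

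Snord43 is known as a box C/D snoRNA, a class that guides methylation of the ribose in ribosomal RNA, and it varied least of the 13. It had 580, 534 and 697 CPM in the heterozygous mice and 547, 756 and 775 CPM in the wild-type mice, a 1.45-fold range. The highest values were those of wild-type mice 2 and 3, and the third wild-type mouse lay among the heterozygotes. The log2 fold change was -0.20 (standard error 0.30, 95% interval from -0.91 to 0.51).

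Both boxes of a C/D snoRNA, TGATGA and then CTGA at least 20 bases further on, were found on the given strand of 3 of the 151 transcripts (1.99%), Snord43, Mir677 and mmu-mir-3535, and of 9 of the 2202 annotated miRNA transcripts (0.409%). Mir677 shares 72 of its 78 bases with a snoRNA transcript that bears the same name. Its CPM was 310, 234 and 338 in the heterozygous mice and 190, 331 and 316 in the wild-type mice. Each genotype had 1 mouse clearly below its others, wild-type mouse 1 and heterozygous mouse 2, and the log2 fold change was 0.07 (standard error 0.33, 95% interval from -0.71 to 0.86).

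Overlap with another short RNA on the same strand was found for 11 of 151 miRNA transcripts in the table (7.28%), beside 37 of the 2202 annotated (1.68%), with no test of the difference. These 11 held 12.2% of the miRNA counts. None of the 11 overlapping snoRNA and scaRNA transcripts has a row of its own in the table, as far as rows could be matched to the annotation. Counts on the bases shared with them thus appear under the miRNA transcript and not under theirs. Mir6516, Mir3068, Mir1949, Mir1843a and mmu-mir-3535 also overlap an exon of a further gene on the same strand, and whether reads were counted there was not checked. Mir1843a, Mir1843b and Mir3069 lie wholly or but for 1 base inside scaRNAs, in each case in the part towards the 3′ end, and mmu-mir-3084-1, Mir664, Mir3068 and Mir1949 lie in the 3′ part of snoRNAs. Box H/ACA snoRNAs and most scaRNAs fold into hairpins that guide pseudouridylation, and a hairpin of this kind can be annotated as a miRNA.

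**Figure D5:**
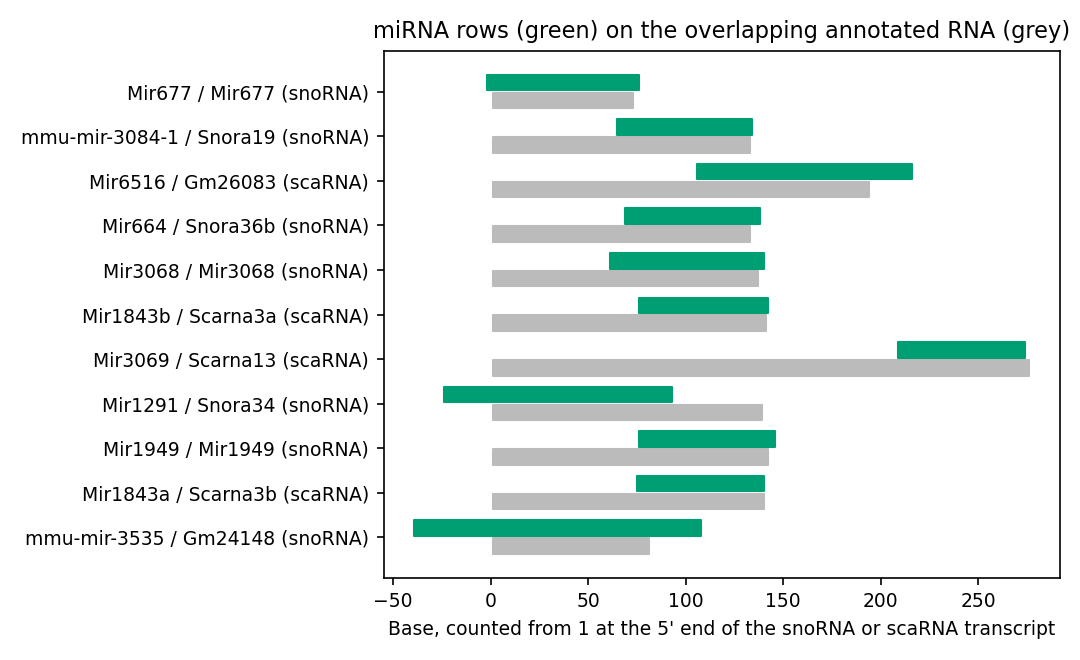
Position of the 11 miRNA transcripts (green) on the snoRNA or scaRNA transcript that each overlaps on the same strand (grey), in bases counted from the 5′ end of the snoRNA or scaRNA. Mir3069 covers 65 bases from base 209 of the 275-base Scarna13, and Mir677 covers its snoRNA whole.

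The sequences of 3 of them are given here with the bases shared with the longer RNA in capitals, because these are the tested transcripts that had 0 counts in at least 1 mouse. Mir6516, at chr11:117077348-117077457 on the forward strand, lies in an exon of Snhg20 and shares 88 bases with the scaRNA Gm26083. Mir3068, at chr12:87437679-87437757 on the reverse strand in an intron of Alkbh1 and over an exon of Gm29362, shares 76 bases with a snoRNA of the same name. Mir3069, at chr12:105031077-105031141 on the reverse strand in an intron of Snhg10, lies inside Scarna13.
Mir6516: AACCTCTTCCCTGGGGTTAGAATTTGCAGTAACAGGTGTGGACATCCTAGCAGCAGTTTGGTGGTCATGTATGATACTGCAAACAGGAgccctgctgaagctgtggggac
Mir3068: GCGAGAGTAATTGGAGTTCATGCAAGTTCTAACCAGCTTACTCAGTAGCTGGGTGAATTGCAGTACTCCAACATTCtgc
Mir3069: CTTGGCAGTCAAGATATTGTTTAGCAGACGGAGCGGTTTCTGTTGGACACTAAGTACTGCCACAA

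The log2 fold change of Mir3069 was the highest of the 13 with all mice in the fit, 1.84 (standard error 1.14, 95% interval from -0.86 to 4.53, unadjusted p = 0.151 from edgeR's quasi-likelihood test). Its counts were 7, 25 and 15 in the heterozygous and 0, 2 and 25 in the wild-type mice, or 1.35, 12.7 and 4.96 CPM against 0, 0.498 and 3.70 CPM. Heterozygous mice 2 and 3 were above each wild-type mouse, and heterozygous mouse 1 lay among them, so the genotypes overlapped. Single mice moved the log2 fold change, to 0.95 without heterozygous mouse 2 and to 4.16 without wild-type mouse 3, and without wild-type mouse 1 that of Mir6236, at 2.61, was above its 1.48.

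Mir3068 had the lowest fold change with all mice in the fit, -1.52 on the log2 scale (standard error 1.17, 95% interval from -4.29 to 1.26, unadjusted p = 0.238 from edgeR). It had 29 counts in heterozygous mouse 1 and 0 in heterozygous mice 2 and 3, and 11, 15 and 59 counts in the wild-type mice. The 1 heterozygous mouse with counts stood at 5.58 CPM, among the wild-type mice with 6.12, 3.74 and 8.73 CPM, while the limits that 0 counts allow were 1.52 and 0.992 CPM in the other two. Counts of Mir3068 were thus either at a wild-type level or 0 in the heterozygotes, and no mouse lay in between. Whether reads were counted on Gm29362 instead was not checked. The rank of Mir3068 rested on single mice: without heterozygous mouse 2 it was at -1.10 and Mir6516 at -1.23, and without wild-type mouse 3 it was at -1.25, mmu-mir-3084-1 at -1.29 and Mir6516 at -1.41.

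Mir6516 also had counts in some mice and none in others, in both genotypes. A match of 110 bases at 100% identity places it in Snhg20 as well, and whether reads were counted there was not checked. It had 107, 41 and 0 counts in the heterozygous and 77, 124 and 0 counts in the wild-type mice, so that mouse 3 of each genotype had none, including the library with the largest total. Its log2 fold change of -0.81 had a standard error of 1.70. Such rows were not rare in the table. Of the 503 rows with either 15 or more or at most 2 counts in each mouse and at least 1 mouse with 15 or more, 45 were present in some mice and missing in the others, and 1 of those was a miRNA transcript, Mir6516. Of the 45, 9 were present only in mouse 1 of each genotype and 2, Mir6516 among them, only in mice 1 and 2 of each. Patterns that join mice of different numbers were not counted.

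mmu-mir-3084-1 shares 68 of its 69 bases with Snora19, which guides pseudouridylation of ribosomal RNA as an H/ACA snoRNA, and its sequence is identical to that of another annotated hairpin, Mir3084-1. It had 28.3, 16.8 and 7.94 CPM in the heterozygous and 37.8, 48.8 and 16.1 CPM in the wild-type mice. Wild-type mice 1 and 2 were the highest and the third fell among the heterozygotes. The log2 fold change was -0.94 (standard error 0.58, 95% interval from -2.32 to 0.43), with the smallest unadjusted p of the 13, 0.149 (edgeR).

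Mir664, at chr1:185242975-185243043 on the forward strand in an intron of Rab3gap2, shares 64 bases with Snora36b. It had 7.5, 3.55 and 3.31 CPM in the heterozygous and 7.23, 7.97 and 4.59 CPM in the wild-type mice, and its log2 fold change was -0.41 (standard error 0.51). Mir1843b, which lies in Scarna3a in an intron of Cop1, had 2.69, 5.58 and 3.97 CPM in the heterozygous and 2.22, 5.23 and 2.96 CPM in the wild-type mice, and its log2 fold change was 0.17 (standard error 0.55). For Mir664, heterozygous mouse 1 stood among the wild-type mice and the other heterozygotes below them, and for Mir1843b the values of the genotypes alternated.

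Mir1983 is the transcript closest to Pol III, as a miRNA known to derive from a tRNA. It had 18.7, 26.9 and 22.2 CPM in the heterozygous and 17.8, 32.9 and 20.6 CPM in the wild-type mice. The wild-type mice held both ends of the range, and the log2 fold change was -0.08 (standard error 0.36, 95% interval from -0.93 to 0.77). It was the only one of the 151 with the B box GTTCGANNC on the given strand (0.662%), a match found in 23 of the 2202 annotated miRNA transcripts (1.04%). Mir1983 matched no other GENCODE M21 transcript over 31 bases or more at 95% identity. The sequences of the tRNA rows of the table were not used here, so reads of tRNAs that fit this hairpin were not looked for.

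Among the stand-alone miRNAs, Mir192 had the most counts. It had 29, 12 and 15 counts in the heterozygous and 5, 40 and 43 in the wild-type mice, which is 5.58, 6.09 and 4.96 CPM against 2.78, 9.96 and 6.37 CPM. The heterozygotes lay close together inside the range of the wild-type mice, and the log2 fold change was -0.24 (standard error 0.52, 95% interval from -1.47 to 0.998).

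Mirlet7c-2, at chr15:85706603-85706697 on the forward strand in an exon of Lncppara, had 2.50, 7.11 and 4.30 CPM in the heterozygous and 3.34, 9.71 and 2.96 CPM in the wild-type mice. Its log2 fold change was -0.26 (standard error 0.66). Mirlet7f-1 had 4.04, 3.55 and 4.30 CPM in the heterozygous and 2.78, 6.23 and 4.59 CPM in the wild-type mice, and its log2 fold change was -0.22 (standard error 0.48). For both, each heterozygous mouse but the lowest one of Mirlet7c-2 lay within the range of the wild-type mice.

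Predicted folding is given as a description. The minimum free energy per base was between -0.42 and -0.51 kcal/mol for Mir192, Mirlet7c-2 and Mirlet7f-1, and from -0.71 to -0.19 kcal/mol over all 137 stand-alone transcripts, with a median of -0.42. For the 7 tested transcripts that overlap another RNA, it was between -0.22 and -0.41 kcal/mol with a median of -0.32, which lies inside the range of the stand-alone ones. Snord43 stood at -0.29, Mir6236 at -0.37 and Mir1983 at -0.40 kcal/mol per base, and Mir1983 folded with 3 hairpin loops. A single hairpin loop was predicted for 135 of the 151, whose lengths ran from 61 to 147 bases with a median of 85.

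The labelled tissue was set beside miRNAs known to mark cell types. Over all miRNA transcripts of the annotation, 151 of 2202 had a row. Of 18 miRNA genes of the intestinal epithelium, 13 had a row, with 318 counts in all and Mir192 the highest. Summed, they stood at 12.1, 10.2 and 8.27 CPM in the heterozygous and 3.89, 23.7 and 16.0 CPM in the wild-type mice, so the wild-type mice held both extremes. Of 13 genes of smooth muscle, striated muscle and other mesenchyme, 2 had a row, Mir143 and Mir145a, with 56 counts, and the striated-muscle genes Mir1a-1, Mir133a-1 and Mir206 had no row. Of 14 genes of blood cells and endothelium, 13 of them in the annotation, 5 had a row, with 54 counts, and Mir223, of myeloid cells, was the highest. The summed CPM ran from 0.661 to 2.03 in the heterozygotes and from 1.11 to 5.23 in the wild type for mesenchyme, and from 0.331 to 2.03 and from 1.67 to 4.73 for blood and endothelium. Of 14 genes that mark liver, pancreas, neurons or heart, such as Mir122, Mir217, Mir124a-1 and Mir208a, 13 are in the annotation and 0 had a row. With so few of the annotated miRNA transcripts in the table, 0 rows on a list this short says little about the tissue. The markers of the epithelium, mesenchyme and blood were together highest in wild-type mouse 2, and their part in any difference was not tested.

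Of 12 let-7 family genes, which restrain growth and cell-cycle messenger RNAs, 9 had a row, 2 were tested and 0 were called. The family summed to 11.9, 13.2 and 13.2 CPM in the heterozygous and 13.9, 26.9 and 14.95 CPM in the wild-type mice. After TMM scaling each heterozygous mouse was thus below each wild-type mouse, but by little for 5 of the 6. Divided by library totals instead, the sums were 14.9, 10.8 and 13.99 against 11.8, 23.7 and 16.7 CPM without TMM, and the genotypes overlapped. Of 15 genes of the miR-17-92 cluster and its paralogous clusters, which promote proliferation, 5 had a row with 24 counts in all, Mir17 the highest with 11, and none was tested. Of 31 broadly expressed miRNA genes, 17 had a row with 128 counts in all, Mir27b the highest with 31, and none was tested.

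The 5 highest of the transcripts that were not tested were Mir143, Mir1291, Mirlet7b, Mir1949 and Mir802. Mir143 had 8, 4 and 2 counts in the heterozygous and 2, 21 and 17 in the wild-type mice, and Mir1291, in an intron of Kansl2 and over 92 bases of Snora34, had 25, 1 and 4 against 3, 3 and 23 counts. Mirlet7b had 7, 2 and 5 against 6, 12 and 12 counts, or 1.35, 1.02 and 1.65 against 3.34, 2.99 and 1.78 CPM. It is the only one of these 5 whose genotypes did not overlap in CPM, beside 4.11% on the lower side and 2.14% on the higher side of the 560 tested. Over all 151, the genotypes were apart for 4, Mirlet7b and Mir126a on the lower side and Mir5136 and Mir98 on the higher side, each at no more than a few CPM. The 560 passed a filter on low counts that these 4 did not, and the share over rows that failed it was not taken. Whether 4 is many or few can therefore not be judged. Mir1949 had 20 counts in heterozygous mouse 1, 13 in wild-type mouse 1 and 0 in the other 4 mice. Mir802 had 14, 2 and 5 against 0, 7 and 19 counts.

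miRNA genes that lie together are often cut from a single primary transcript, and 39 of the 151 lay within 10000 bases of another on the same strand, in 17 clusters. Members of a cluster differed in their counts. Mir192 had 162 counts per 100 bases over the 6 mice and its neighbour Mir194-2, 115 bases upstream, had 37.2, and Mir192 had the more counts in 6 of 6 mice. In the paralogous cluster, Mir215 had 28.6 counts per 100 bases and Mir194-1 had 22.4, and the 32 counts of Mir215 came from wild-type mice 2 and 3, with 19 and 13, and none from the other 4 mice. Mirlet7f-1 had 115 counts per 100 bases, beside 41.5 for Mirlet7a-1 and 25.2 for Mirlet7d. Mirlet7c-2 had 111 and Mirlet7b, 621 bases away, had 51.8 counts per 100 bases. Mir27b had 42.5, between Mir23b with 1.35 and Mir24-1 with 13.2, and Mir143 had 85.7 beside 2.86 for Mir145a. The mature strand with the higher level cannot be read from these counts.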

How the data were processed

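Per the labels and the methods of the study, the authors used Cutadapt on the reads and Salmon with an index of GRCm39 RNAs, and they restricted the table to lengths under 300 bases. The deposited values are estimated counts from Salmon, given as integers and not normalized, and were used as such. Heterozygous columns carry no mouse gene name and were taken as the Polr3B-/+ males, the only other group. miRNA types, coordinates and overlaps came from GENCODE M21 (GRCm38, not the build of the counts), and mature sequences from RefSeq (GRCm38.p6), with 136 of 151 symbols matched. All 1630 rows were fitted with edgeR 4.0.16 (R 4.3.3): filterByExpr with a minimum count of 10, TMM, glmQLFit and glmQLFTest without covariates, Benjamini-Hochberg adjustment over the 560 tested rows and a threshold of 0.1. DESeq2 1.42.0, limma 3.58.1, other filters and scalings, and leaving out each mouse were alternatives. CPM are relative to the TMM-scaled total. Sequences were compared with blastn 2.17.0 and folded with RNAfold. P-values measure the spread between these mice. Named transcripts are the 13 tested, the 5 highest not tested and the highest of each list. The members and lists were chosen with earlier results of these data known. The code was first tested on simulated data.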

Additional observations from a re-analysis of the deposited data

How the results depend on the processing

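With edgeR, 0 miRNA transcripts passed 10% FDR, and the count of miRNA transcripts stayed at 0 under all 19 alternatives. A stricter adjusted-p threshold of 0.05, 1 of the 19, could not have raised the count. Over these alternatives the smallest adjusted p of the 13 was 0.522, for Mir6236 with edgeR without wild-type mouse 1. At an unadjusted p under 0.05, there were 0 of 13 (20 of all 560), 1 of 151 with DESeq2 on all rows (29 of 1614), 1 of 13 with limma-voom (14 of 560) and 3 of 151 with a filter of at least 1 count in any mouse (37 of 1630). Leaving out heterozygous mouse 1 gave 1 of 13 (15 of 558), wild-type mouse 3 gave 1 of 14 (15 of 576), and each other mouse gave 0. Over all rows these fits ran from 9 of 611 without heterozygous mouse 3 to 55 of 593 without wild-type mouse 1. The median log2 fold change of the tested miRNA transcripts, -0.22, was -1.01 with at least 1 count in any mouse, where all 151 are tested and most rest on a few counts, and ran from -0.36 to -0.13 when each mouse was left out in turn. The share of counts on miRNA transcripts differed by 0.0494 percentage points, by 0.455 with only the annotation-matched rows as the denominator, and by -0.0501 to 0.233 when each mouse was left out. The cause of these shifts was not tested. Of the 13 log2 fold changes, 8 changed sign under an alternative and 5 did not (Snord43, mmu-mir-3084-1, Mir664, Mir3068 and Mir3069). With limma-voom Mir6516 was at 1.19, with library totals Mir1983 was at 0.074, and with a term for library size Mir6236 was at -0.24 and Mir192 at 0.074. Leaving out each mouse in turn gave -0.52 to 2.61 for Mir6236, the highest without wild-type mouse 1, -0.15 to 0.22 for Mir677, -0.26 to 0.23 for Mir1983, -0.56 to 0.21 for Mir192, -0.66 to 0.52 for Mirlet7c-2, -0.45 to 0.066 for Mirlet7f-1 and -0.083 to 0.58 for Mir1843b. Without a change of sign, it gave -1.48 to -0.59 for mmu-mir-3084-1 (lowest without heterozygous mouse 1, highest without wild-type mouse 2), -0.92 to -0.23 for Mir664 (without heterozygous mice 1 and 3), -1.41 to -0.17 for Mir6516 (without wild-type mice 3 and 1) and 0.95 to 4.16 for Mir3069. No fold is given for Mir3068 without heterozygous mouse 1, since the other heterozygotes had 0 counts. The labels do not pair the samples by number, and over the 560 tested rows same-numbered mice did not all deviate together (correlations 0.02, -0.08 and 0.11). Between mice of different numbers the correlations ran from -0.16 to 0.13. Of 45 all-or-none rows, 9 were present only in mouse 1 of each genotype, but patterns that join different numbers were not counted. The fit with the number as a replicate block, chosen after seeing the data, called 0 miRNA transcripts and gave a median of -0.10. No near-identical miRNA rows were found, so the alternative that sums them gave no value. Depth limits 138 of the 151 transcripts to a description.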
